A study of Mus musculus with 17 samples.

Results

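The 9 genes described here belong to the machinery that releases insulin by exocytosis and were followed in mouse pancreatic islets. Listed were the syntaxin Stx1a, the SNAP protein Snap25, the vesicle SNARE Vamp2, the synaptotagmin Syt7, the granuphilin Sytl4, the small GTPases Rab3a and Rab27a, and the docking and priming factors Rims2 and Unc13a. A gene was taken as measured when at least 1 probe set of the array named it alone. That held for 8 of the 9, among 19938 genes measured in all, with 10 probe sets between them. The only probe set for Vamp2 also named Ubr3, so Vamp2 has no value here.

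Islets of untreated mice aged 2 months were profiled on 17 arrays, 1 per RNA sample. The groups are wild type (wt, 3 arrays), RIP-Cre (3), Men1flf RIP-Cre (3, called Men1 RIP-Cre below), Rbp2flf RIP-Cre (4, Rbp2 RIP-Cre) and Men1flf Rbp2flf RIP-Cre (4, Men1 Rbp2 RIP-Cre). Every group but wt carries the Cre transgene, so RIP-Cre is the control for the 3 knockout groups, and the comparisons with it share its 3 arrays and are not independent. RIP is the rat insulin promoter, which drives Cre in beta cells, while the RNA came from whole islets with their other endocrine, vascular and nerve cells. Men1 encodes menin, a tumour suppressor that works with histone H3 lysine 4 methyltransferases. Rbp2 is the histone demethylase that removes those marks, listed on the array as Kdm5a. Within a group the titles give repeat numbers but no animals, so p-values below reflect array-to-array spread that may be technical.

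Insulin granules fuse with the plasma membrane when a vesicle SNARE (Vamp2) zippers with the membrane SNAREs syntaxin-1A and SNAP-25. Calcium sensors of the synaptotagmin family trigger that step. Before it, Rab27a and Rab3a on the granule recruit effectors such as granuphilin and Rim2, which tether the granule, and Munc13-1 (Unc13a) opens syntaxin so that the granule becomes primed.

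Men1 was lower by 1.06 (log2, SE 0.11) in Men1 RIP-Cre than in RIP-Cre and by 0.77 (SE 0.11) in the double knockout (limma, adjusted p = 3.08e-05 and 0.000558), and 0.73 higher in Rbp2 RIP-Cre (adjusted p = 0.00359). Kdm5a did not pass in Rbp2 RIP-Cre (-0.22, adjusted p = 0.148) or in the double knockout (-0.02, adjusted p = 0.896). Where its probes lie relative to the deleted part was not analysed here, so this does not check those labels. The deposited values share an upper quartile of 8.92 to 8.95 on every array, but their medians differ. The array median over all genes was 8.03, 7.97 and 8.16 in RIP-Cre, 7.86 to 7.87 in Men1 RIP-Cre, 7.82 to 7.98 in Rbp2 RIP-Cre and 7.88 to 7.95 in the double knockout, and 7.99 to 8.10 in wt. No array of Men1 RIP-Cre or of the double knockout reached the lowest control array, so array median and genotype cannot be told apart in those groups. Each change is therefore given as deposited and, where it matters, after cyclic loess (which levels the arrays at each intensity) or with the array median held fixed as a covariate.

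Promoter windows are shown for 3 of the genes that passed the test in Men1 RIP-Cre, because methylated H3 lysine 4, the mark that both deleted proteins act on, lies at promoters. Stx1a and Unc13a were lower there, and Sytl4 was higher. The windows run from 250 bases before to 50 after the annotated start (RefSeq, GRCm38.p6), read 5′ to 3′ on the gene's strand. Capitals mark the GC box GGGCGG or its complement CCGCCC.
Stx1a, chr5:135023232-135023531, plus strand: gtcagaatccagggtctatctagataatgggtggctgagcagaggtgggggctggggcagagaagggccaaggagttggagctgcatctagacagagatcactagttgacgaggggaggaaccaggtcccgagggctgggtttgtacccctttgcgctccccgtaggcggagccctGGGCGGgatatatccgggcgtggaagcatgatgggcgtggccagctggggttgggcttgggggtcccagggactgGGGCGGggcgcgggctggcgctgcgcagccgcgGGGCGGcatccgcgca
Unc13a, chr8:71671708-71672007, minus strand: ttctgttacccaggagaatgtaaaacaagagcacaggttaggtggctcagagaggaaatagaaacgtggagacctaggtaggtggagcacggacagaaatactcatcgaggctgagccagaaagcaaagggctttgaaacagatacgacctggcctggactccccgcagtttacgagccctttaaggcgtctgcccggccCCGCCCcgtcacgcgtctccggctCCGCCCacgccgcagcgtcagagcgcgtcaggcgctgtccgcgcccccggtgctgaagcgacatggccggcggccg
Sytl4, chrX:133981763-133982062, minus strand: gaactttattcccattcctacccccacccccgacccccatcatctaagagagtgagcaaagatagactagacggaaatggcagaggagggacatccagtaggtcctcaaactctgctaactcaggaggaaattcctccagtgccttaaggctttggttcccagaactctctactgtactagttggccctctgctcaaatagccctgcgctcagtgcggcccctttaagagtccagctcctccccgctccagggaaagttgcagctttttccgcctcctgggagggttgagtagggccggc
The Stx1a window holds 19 CpG dinucleotides and 3 GC boxes. Unc13a has 27 CpG and 2 GC boxes, while Sytl4 has 7 CpG and no GC box. Over 32851 windows of the same length the median was 7 CpG, and 28.1%, 15.5% and 52.1% of them hold at least as many as Stx1a, Unc13a and Sytl4. GC boxes occur in 35.7% of the windows on either strand. Rab3a and Rab27a, which also rose, have 2 windows each. Those of Rab3a hold 18 and 22 CpG with 2 and 0 GC boxes, and those of Rab27a hold 18 and 6 CpG with 1 and 0 GC boxes. Snap25, Syt7 and Rims2 have no window in the table used.

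In Men1 RIP-Cre islets the membrane SNARE pair moved in opposite directions: Snap25 was 2.15-fold higher than in RIP-Cre and Stx1a 1.73-fold lower. Rab3a, Rab27a and the Rab27a effector Sytl4 were higher as well, and the priming factor Unc13a was lower. A gene is called when its adjusted p (limma, Benjamini-Hochberg over all 19938 genes) is under 0.05. By that rule 4 of the 8 genes were called higher and 2 lower, where 15.7% of all genes were called higher and 37.8% lower. Their median log2 fold change was 0.22, against -0.23 over all genes. After cyclic loess 2 were called higher and 4 lower (all genes: 18.4% and 16.0%), with a median of -0.04 against -0.02. In bulk islets fewer cells of a type and less RNA per cell cannot be told apart.

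**Figure D1:**
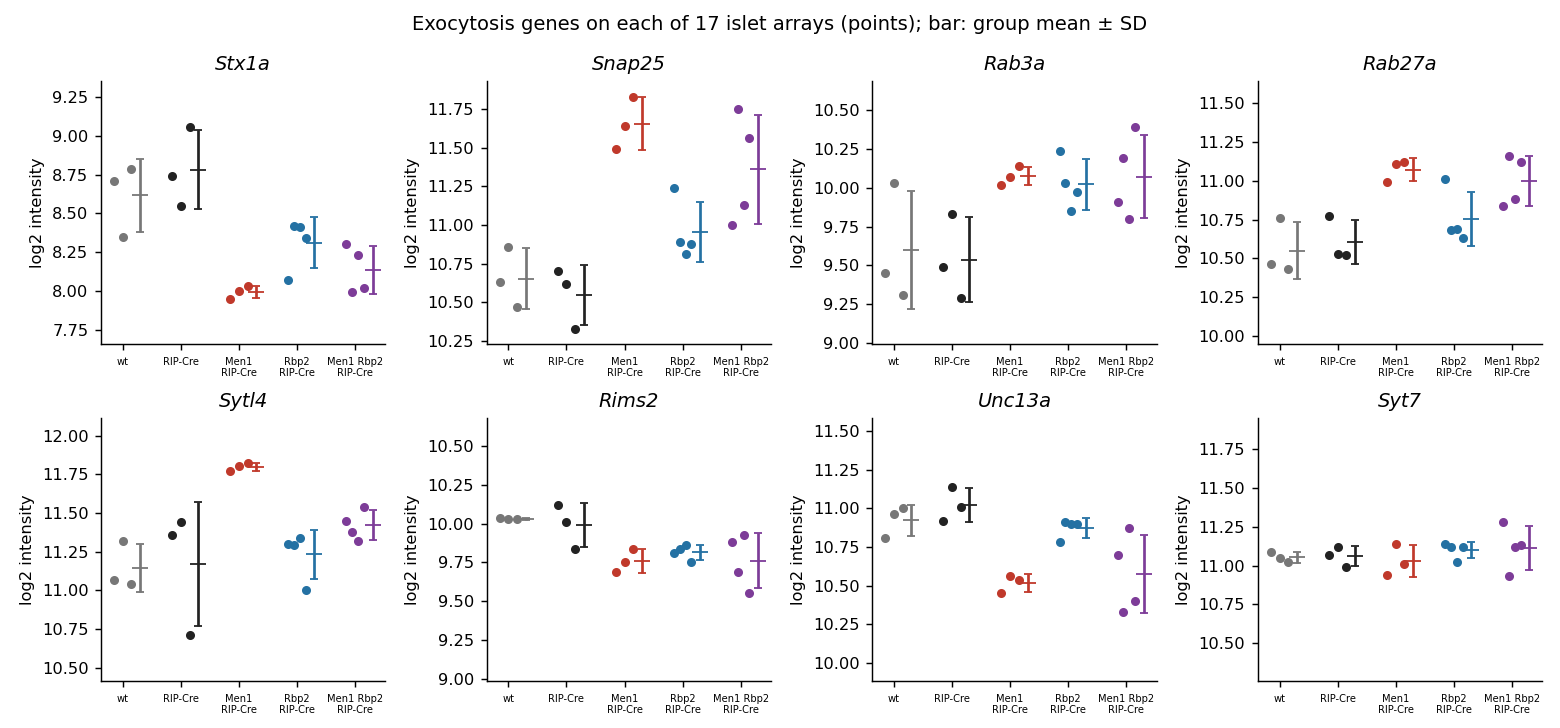
Log2 intensity (vertical axis) of 8 exocytosis genes on each of 17 islet arrays (points), by genotype group (horizontal axis), with the group mean and SD as a bar; each panel spans its own range. In Men1 RIP-Cre, Snap25 lies at 11.49 to 11.83 above every RIP-Cre array, and Stx1a at 7.95 to 8.03 below every one.

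Snap25 encodes the membrane SNARE that supplies a pair of the helices of the fusion complex. Its log2 intensity was 10.70, 10.62 and 10.33 on the RIP-Cre arrays, 10.63, 10.86 and 10.47 in wt, and 11.49, 11.64 and 11.83 in Men1 RIP-Cre. The double knockout gave 11.00, 11.75, 11.13 and 11.56, and Rbp2 RIP-Cre 11.24, 10.89, 10.81 and 10.88. All 3 knockout groups lay above all RIP-Cre arrays without overlap, Men1 RIP-Cre highest and Rbp2 RIP-Cre lowest of the 3, with the double knockout spread across the gap between them. The fitted difference was 1.10 (SE 0.18, 95% interval 0.72 to 1.49, adjusted p = 0.000517) in Men1 RIP-Cre and 0.81 (SE 0.17, 0.45 to 1.17, adjusted p = 0.00436) in the double knockout. For Rbp2 RIP-Cre it was 0.41 (0.05 to 0.76, adjusted p = 0.0967), which did not pass. Bright probe sets as a whole read higher in the knockouts on the deposited scale. The decile of mean level that holds Snap25 had a median change of 0.20 in Men1 RIP-Cre, and cyclic loess left Snap25 at 0.83 (adjusted p = 0.000605) there and 0.54 (adjusted p = 0.00907) in the double knockout. With the array median held fixed it was 0.59 and 0.44, and neither passed (adjusted p = 0.147 and 0.176).

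Stx1a, the syntaxin partner of Snap25, went the other way. The RIP-Cre arrays read 8.74, 8.55 and 9.06 and the wt arrays 8.71, 8.35 and 8.79. Men1 RIP-Cre gave 7.95, 8.00 and 8.03, the double knockout 8.30, 7.99, 8.23 and 8.02, and Rbp2 RIP-Cre 8.07, 8.42, 8.41 and 8.34. Each knockout group lay below all RIP-Cre arrays, and the Men1 RIP-Cre arrays spanned the least (7.99 ± 0.04 SD, n = 3, against 8.78 ± 0.26, n = 3, in RIP-Cre). Stx1a fell by 0.79 (SE 0.14, adjusted p = 0.000943) in Men1 RIP-Cre, by 0.65 (SE 0.13, adjusted p = 0.00417) with both genes deleted and by 0.47 (SE 0.13, adjusted p = 0.0344) in Rbp2 RIP-Cre. It was the only one of the 8 genes called in all 3 knockout comparisons, which share the RIP-Cre arrays. The share of all genes called in all 3 was not counted. Genes of its level decile had a median of -0.20 in Men1 RIP-Cre, and after cyclic loess the 3 differences were -0.65, -0.54 and -0.39, all still called (adjusted p = 0.000871, 0.00359 and 0.0371). With the array median held fixed they were -0.27, -0.28 and -0.14, and none passed (adjusted p = 0.197, 0.109 and 0.5). The Rbp2 RIP-Cre call also ended without RIP-Cre array 1 (-0.49, adjusted p = 0.0513) or 3 (-0.33, adjusted p = 0.186), or Rbp2 RIP-Cre array 1 (-0.39, adjusted p = 0.111) or 2 (-0.51, adjusted p = 0.0537).

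Rab27a, the GTPase that marks granules for docking, and Sytl4, its effector granuphilin that binds syntaxin-1A, were both higher in Men1 RIP-Cre. Rab27a read 10.77, 10.53 and 10.52 in RIP-Cre, 10.46, 10.76 and 10.43 in wt, 10.99, 11.11 and 11.12 in Men1 RIP-Cre, 10.84, 11.16, 10.88 and 11.12 for the double knockout, and 11.01, 10.68, 10.69 and 10.63 in Rbp2 RIP-Cre. The Men1 RIP-Cre and double knockout arrays lay wholly above RIP-Cre, whereas Rbp2 RIP-Cre overlapped it except for its array 1. The differences from RIP-Cre were 0.47 (SE 0.13, adjusted p = 0.00772), 0.39 (SE 0.12, adjusted p = 0.0211) and 0.15 (SE 0.12, adjusted p = 0.359). Rab27a was thus called in the groups that lack Men1. Cyclic loess took the first to 0.22 and the second to 0.16 (adjusted p = 0.0781 and 0.208), both uncalled, as the array median did (0.13 and 0.16, adjusted p = 0.679 and 0.506). In the double knockout the call also ended without RIP-Cre array 2 (0.36, adjusted p = 0.0521) or 3 (0.35, adjusted p = 0.093), or double knockout array 2 (0.34, adjusted p = 0.063) or 4 (0.35, adjusted p = 0.0628).

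Granuphilin docks granules at the membrane and slows their fusion. Sytl4 was 11.36, 11.44 and 10.71 in RIP-Cre, 11.07, 11.32 and 11.04 in wt, and 11.77, 11.80 and 11.82 in Men1 RIP-Cre. It was 11.45, 11.38, 11.32 and 11.54 in the double knockout and 11.30, 11.29, 11.34 and 11.00 in Rbp2 RIP-Cre. Here Men1 RIP-Cre stood above all other arrays of the series, while RIP-Cre spread widely because of its array 3. The change in Men1 RIP-Cre was 0.63 (SE 0.15, 1.54-fold, adjusted p = 0.00458), 0.40 without RIP-Cre array 3, 0.33 after cyclic loess (adjusted p = 0.0366) and 0.18 with the array median held fixed (adjusted p = 0.614). Quantile normalization ended the call (0.31, adjusted p = 0.068). In the double knockout it was 0.25 (-0.05 to 0.56, adjusted p = 0.168) and turned to -0.05 after cyclic loess, and in Rbp2 RIP-Cre it was 0.06 (adjusted p = 0.753). On the brightest probe set of each gene, Sytl4 was also the only one of the 8 whose double knockout and Men1 RIP-Cre arrays did not overlap, at -0.37 (-0.68 to -0.07, adjusted p = 0.241), which did not pass. The share of all genes without overlap between these groups was not counted.

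Rab3a, the other granule GTPase and a partner of Rim2, read 9.49, 9.83 and 9.29 in RIP-Cre, 9.45, 10.03 and 9.31 in wt, 10.02, 10.07 and 10.14 in Men1 RIP-Cre, 9.91, 10.19, 9.80 and 10.39 for the double knockout, and 10.24, 10.03, 9.85 and 9.97 in Rbp2 RIP-Cre. The 3 knockout groups had nearly equal means of 10.08 ± 0.06 (SD, n = 3), 10.07 ± 0.27 (n = 4) and 10.02 ± 0.16 (n = 4), against 9.54 ± 0.27 (n = 3) in RIP-Cre, and array 2 of wt reached them too. Against RIP-Cre the differences were 0.54 (SE 0.19, adjusted p = 0.0238), 0.54 (SE 0.17, adjusted p = 0.0284) and 0.49 (SE 0.17, adjusted p = 0.0652), so that Men1 RIP-Cre and the double knockout passed, the latter with overlap. Of the 6 calls in Men1 RIP-Cre that on Rab3a ended under the most alternatives. It ended after cyclic loess (0.42, adjusted p = 0.0516), without RIP-Cre array 1 (0.52, adjusted p = 0.0548) or 3 (0.42, adjusted p = 0.117), and without Men1 RIP-Cre array 2 (0.54, adjusted p = 0.0522) or 3 (0.51, adjusted p = 0.0628), and the sign turned with the array median as a covariate (-0.09, adjusted p = 0.845). In the double knockout the call ended without RIP-Cre array 1 (0.51, adjusted p = 0.0657) or 3 (0.41, adjusted p = 0.152), without double knockout array 2 (0.50, adjusted p = 0.0713) or 4 (0.43, adjusted p = 0.0899), and with the array median held fixed (0.09, adjusted p = 0.782). The Rbp2 RIP-Cre difference was called when array 2 of RIP-Cre (0.63, adjusted p = 0.0408) or of wt (0.49, adjusted p = 0.0359) was left out.

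Unc13a encodes Munc13-1, the priming factor that acts on syntaxin-1A. Its brightest probe set gave 10.92, 11.14 and 11.01 in RIP-Cre, 10.81, 10.96 and 11.00 in wt, 10.45, 10.56 and 10.54 in Men1 RIP-Cre, 10.70, 10.33, 10.87 and 10.40 for the double knockout, and 10.78, 10.91, 10.90 and 10.90 in Rbp2 RIP-Cre. Men1 RIP-Cre lay below every control array, and the double knockout lay below RIP-Cre but within reach of wt and Rbp2 RIP-Cre. Unc13a fell by 0.51 (SE 0.12, 1.42-fold, adjusted p = 0.00417) in Men1 RIP-Cre and by 0.45 (SE 0.11, 1.36-fold, adjusted p = 0.0101) in the double knockout. For Rbp2 RIP-Cre the value was -0.15 (-0.39 to 0.09, adjusted p = 0.322). Genes as bright had a median change of the other sign (0.20 in Men1 RIP-Cre, 0.21 in the double knockout), and after cyclic loess the falls were larger, -0.75 and -0.68 (adjusted p = 0.00127 and 0.00327). With the array median held fixed they were -0.42 and -0.38 and did not pass (adjusted p = 0.235 and 0.172).

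The other 2 probe sets that name Unc13a alone are dimmer, and only 1 of the 3 was called in the double knockout. Probe set 10579550 gave 8.97, 9.38 and 9.24 in RIP-Cre, 8.61, 8.41 and 8.41 in Men1 RIP-Cre, and 9.16, 8.78, 9.31 and 8.90 in the double knockout. On this probe set Men1 RIP-Cre was below all other arrays, and the double knockout overlapped RIP-Cre. In the limma fit over all probe sets Men1 RIP-Cre differed from RIP-Cre by -0.72 (SE 0.15, adjusted p = 0.00282), with -0.16 (SE 0.14, adjusted p = 0.384) in the double knockout, and 0.56 (SE 0.14, adjusted p = 0.0991) between the double knockout and Men1 RIP-Cre. The third, 10579548, was at -0.25 (adjusted p = 0.067) and -0.07 (adjusted p = 0.588) against RIP-Cre. On both of these probe sets the double knockout lay above Men1 RIP-Cre without overlap (8.78 to 9.31 against 8.41 to 8.61, and 7.92 to 8.00 against 7.70 to 7.88). With the mean of the 3 probe sets Unc13a in the double knockout was at -0.23 and not called (adjusted p = 0.0817). Whether the probe sets differ from one another was not tested.

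Rims2 encodes Rim2, the scaffold that binds Rab3 and Munc13 at docking sites. It read 10.12, 10.01 and 9.84 in RIP-Cre, 10.04, 10.03 and 10.03 in wt, 9.69, 9.75 and 9.84 in Men1 RIP-Cre, 9.88, 9.69, 9.93 and 9.55 for the double knockout, and 9.81, 9.84, 9.86 and 9.75 in Rbp2 RIP-Cre. All 11 knockout arrays were below the 3 wt arrays, while each knockout group touched the lowest RIP-Cre array. The differences from RIP-Cre were -0.23 (SE 0.10, adjusted p = 0.0664), -0.23 (SE 0.10, adjusted p = 0.073) and -0.18 (SE 0.10, adjusted p = 0.181), none called. After cyclic loess Men1 RIP-Cre and the double knockout were called, at -0.34 each (adjusted p = 0.0123 and 0.0143). With wt as the control they were called at -0.27 (adjusted p = 0.035 and 0.0431). The Men1 RIP-Cre difference was also called without RIP-Cre array 3 (-0.30, adjusted p = 0.0422) or double knockout array 4 (-0.23, adjusted p = 0.0485), and that of the double knockout without its array 3 (-0.28, adjusted p = 0.0377).

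Syt7, a calcium sensor of insulin granules, stayed between 10.93 and 11.28 on all arrays. It read 11.07, 11.12 and 10.99 in RIP-Cre, 11.09, 11.05 and 11.02 in wt, 10.94, 11.14 and 11.01 in Men1 RIP-Cre, 11.28, 10.93, 11.12 and 11.13 for the double knockout, and 11.14, 11.12, 11.02 and 11.12 in Rbp2 RIP-Cre, with all groups overlapping. The differences from RIP-Cre were -0.03 (-0.22 to 0.16), 0.05 (-0.13 to 0.24) and 0.04 (-0.14 to 0.22), with adjusted p of 0.79, 0.621 and 0.738. Genes as bright had a median change of 0.20 in Men1 RIP-Cre, and after cyclic loess Syt7 was called lower there (-0.30, adjusted p = 0.0264).

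**Figure D2:**
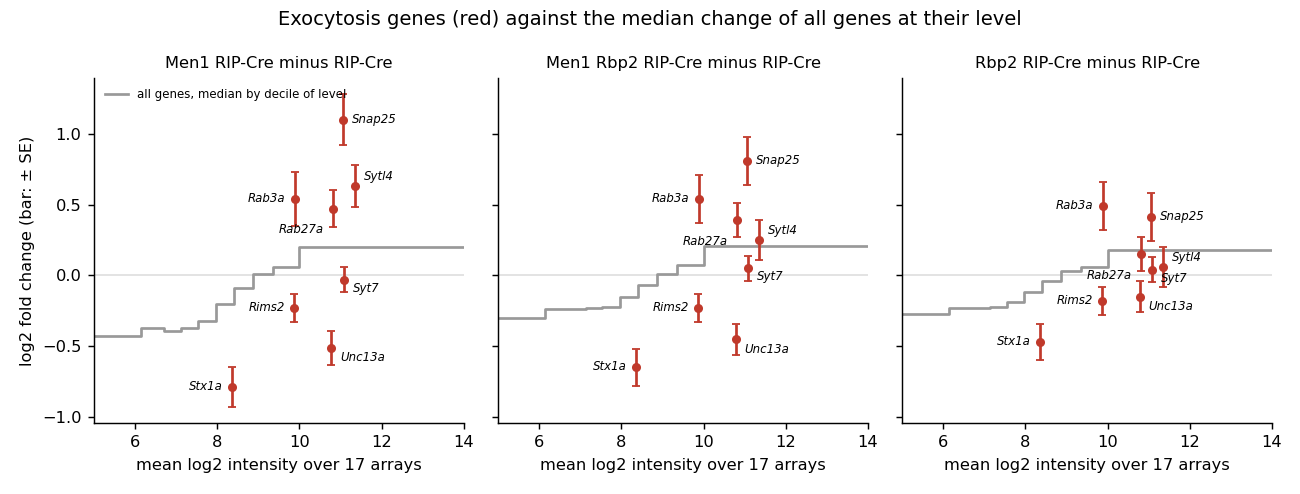
Log2 fold change against RIP-Cre (vertical axis, bar: SE) of the 8 exocytosis genes against their mean log2 intensity over 17 arrays (horizontal axis), in 3 comparisons; the grey step is the median of all genes in each decile of level. The step climbs from -0.43 in the dimmest decile to 0.20 in the brightest in Men1 RIP-Cre, and Snap25, Sytl4, Rab27a and Rab3a lie above it while Stx1a, Rims2, Unc13a and Syt7 lie below it.

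In Rbp2 RIP-Cre only Stx1a was called of the 8 genes (0 higher and 1 lower), where 6.70% of all genes were called higher and 6.70% lower. After cyclic loess the count was again 0 higher and 1 lower (all genes: 5.61% and 3.81%). Snap25 and Rab3a lay above all RIP-Cre arrays, and Unc13a below them, without a call. The share of all genes without overlap with RIP-Cre was not counted, here or for the other groups. In the double knockout 3 genes were called higher (Snap25, Rab3a and Rab27a) and 2 lower (Stx1a and Unc13a), with 13.0% of all genes higher and 20.6% lower. Their median change was 0.15 there, against -0.15 over all genes, and after cyclic loess 2 were higher and 3 lower (all genes: 13.9% and 11.4%).

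**Figure D3:**
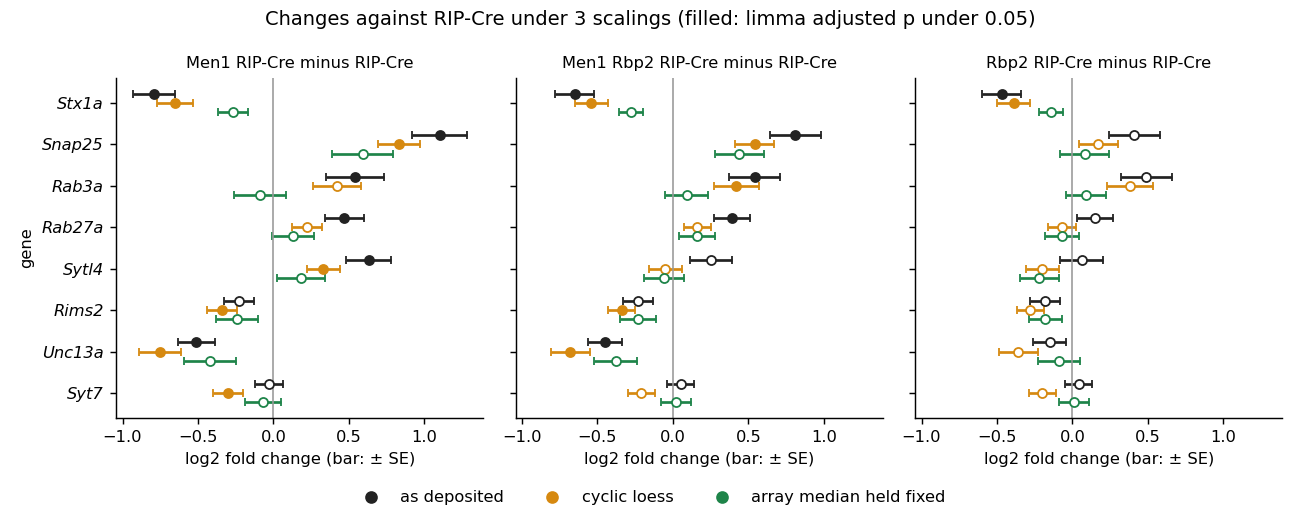
Log2 fold change (horizontal axis, bar: SE) of 8 exocytosis genes against RIP-Cre in 3 knockout groups, as deposited, after cyclic loess, or adjusted for the array median; filled points passed limma's adjusted p of 0.05. Snap25, Sytl4, Stx1a and Unc13a keep their direction and call in Men1 RIP-Cre after cyclic loess. None of the 8 passes in any panel once adjusted for the array median. Of all 19938 genes 396 (Men1 RIP-Cre), 280 (double knockout) and 42 (Rbp2 RIP-Cre) did.

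Cre by itself left these genes within the spread of the arrays. Between RIP-Cre and wt 0 of the 8 were called, as were 0% of all genes. At an unadjusted limma p under 0.05 there were 0 of the 8 and 552 of all 19938 genes. The values ran from -0.10 (Snap25, -0.49 to 0.28) to 0.17 (Stx1a, -0.14 to 0.47).

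Adding the Rbp2 deletion to the Men1 deletion was compared next, as was the reverse. Between the double knockout and Men1 RIP-Cre 0 of the 8 were called (limma; 1.10% of all genes higher, 0.567% lower). An unadjusted limma p under 0.05 was found for 1 of the 8, Sytl4, and for 2871 of all 19938 genes. Snap25 stood at -0.29 (-0.65 to 0.06, adjusted p = 0.438) and Stx1a at 0.14 (-0.14 to 0.42, adjusted p = 0.624). Between the double knockout and Rbp2 RIP-Cre 0 were called as well (limma; 0.582% and 0.617%). At an unadjusted limma p under 0.05 there were 3 of the 8 and 2309 of all 19938 genes. The 3 were Snap25 at 0.40 (0.07 to 0.74, adjusted p = 0.285), Unc13a at -0.30 (-0.52 to -0.08, adjusted p = 0.226) and Rab27a at 0.25 (0.02 to 0.48, adjusted p = 0.379).

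The interaction asks whether the Rbp2 effect in Men1 knockouts differs from the Rbp2 effect in RIP-Cre. None of the 8 genes passed (limma; 1.78% of all genes higher, 1.61% lower). An unadjusted limma p under 0.05 was found for 3 of the 8 and for 7318 of all 19938 genes, which is a like share. Stx1a was at 0.62 (SE 0.19, 0.21 to 1.02, adjusted p = 0.0599), since it was 0.47 below RIP-Cre in Rbp2 RIP-Cre but 0.14 above Men1 RIP-Cre in the double knockout. Snap25 was at -0.70 (SE 0.24, -1.20 to -0.19, adjusted p = 0.072) and Sytl4 at -0.44 (-0.86 to -0.0087, adjusted p = 0.131). Dropping 1 array carried Stx1a past the threshold (0.73, adjusted p = 0.0385, without RIP-Cre array 2, and 0.62, adjusted p = 0.0429, without wt array 2) and Snap25 too (-0.83, adjusted p = 0.0415, without double knockout array 2). After cyclic loess Stx1a, Snap25 and Sytl4 were at 0.49, -0.46 and -0.17, none called (limma, adjusted p = 0.0768, 0.143 and 0.499). With the array median held fixed Stx1a and Snap25 were at 0.13 and -0.22 (adjusted p = 0.832 and 0.859).

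Several of these genes followed the array median even among arrays of 1 genotype. With each group's mean removed, Stx1a had a Pearson r of 0.94 with the array median over 17 arrays (Spearman rho 0.88; permutation within groups, two-sided, p = 0.0014 and 0.0026, adjusted over 8 relations 0.0057 and 0.01). An r of at least this size was found for 0.552% of all genes. For Rab3a it was -0.82 (rho -0.80, p = 0.00065 and 0.0015, adjusted 0.0052 and 0.01), for Snap25 -0.70 (rho -0.73, p = 0.0043 and 0.0039, adjusted 0.011 and 0.01) and for Rab27a -0.71 (rho -0.71, p = 0.015 and 0.0086, adjusted 0.03 and 0.017), by the same permutation. These were commoner sizes, reached by 11.7%, 30.0% and 29.3% of genes. Sytl4 (r -0.74, rho -0.65, adjusted p = 0.051 and 0.062), Unc13a (0.20 and 0.16, adjusted p = 0.51 and 0.63), Syt7 (-0.16 and -0.18, adjusted p = 0.53 and 0.63) and Rims2 (-0.02 and 0.10, adjusted p = 0.96 and 0.74) did not pass that permutation test. Without wt array 1 and RIP-Cre array 3, the 2 farthest from the middle, r was 0.91 for Stx1a, -0.81 for Rab3a, -0.69 for Snap25 and -0.74 for Rab27a. After cyclic loess it was 0.92 for Stx1a and -0.76 for Rab3a, but only -0.46 for Snap25, -0.30 for Rab27a and -0.37 for Sytl4. It rose to 0.57 for Unc13a, turned to 0.62 for Syt7 and was 0.36 for Rims2. The part of the array median in the genotype differences was not tested beyond the covariate values given above.

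**Figure D4:**
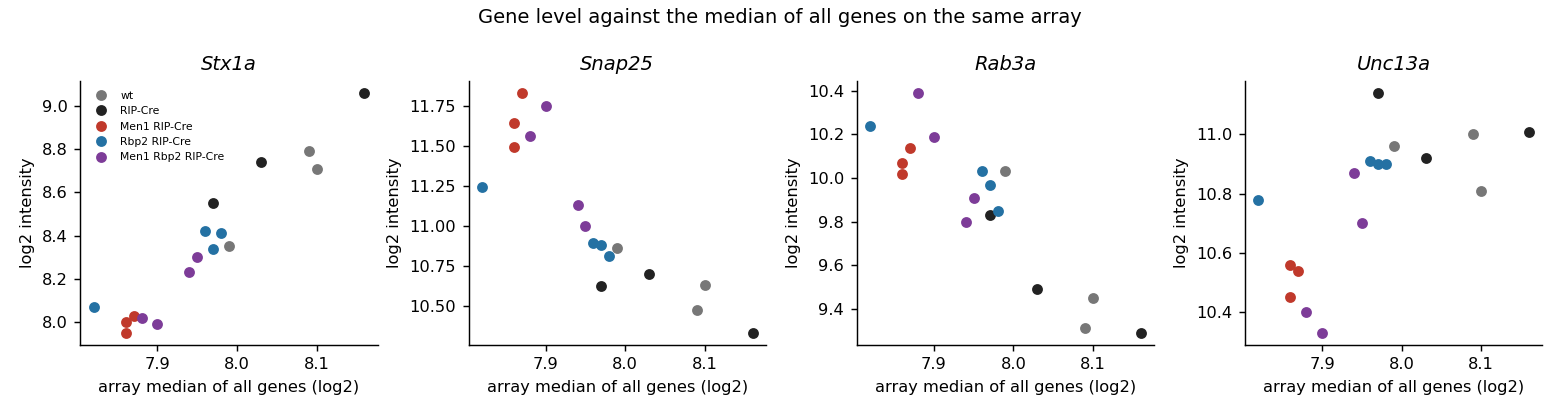
Log2 intensity of Stx1a, Snap25, Rab3a and Unc13a (vertical axes) against the median log2 intensity of all genes on the same array (horizontal axes), 1 point per array, coloured by group. Stx1a climbs from 7.95 to 9.06 with the array median inside and across groups, whereas Unc13a at low medians is lower in Men1 RIP-Cre (10.45 to 10.56) than on array 1 of Rbp2 RIP-Cre (10.78).

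Arrays of different genotype with like medians can be set side by side, without a test. Array 2 of wt, array 2 of RIP-Cre and arrays 2 to 4 of Rbp2 RIP-Cre have medians of 7.96 to 7.99. Among them Stx1a was 8.35, 8.55, 8.42, 8.41 and 8.34, Snap25 was 10.86, 10.62, 10.89, 10.81 and 10.88, and Rab3a was 10.03, 9.83, 10.03, 9.85 and 9.97. The Rbp2 RIP-Cre arrays do not stand clear of the controls in these 3 genes. Rims2 and Unc13a were lower on all 3 of them (9.84, 9.86 and 9.75, and 10.91, 10.90 and 10.90) than on both control arrays (10.03 and 10.01, and 10.96 and 11.14). Arrays 1 and 3 of the double knockout have medians just below these, 7.95 and 7.94. They lay below both control arrays in Stx1a (8.30 and 8.23), Rims2 (9.88 and 9.93) and Unc13a (10.70 and 10.87). In Snap25 they lay above both (11.00 and 11.13), and Rab3a was 9.91 and 9.80. The part of the array median in these values was not tested. At the low end, array 1 of Rbp2 RIP-Cre (median 7.82) neighbours the Men1 RIP-Cre arrays. It was within their range in Rab27a (11.01) and below all 3 in Snap25 (11.24) and Sytl4 (11.30). It was above all 3 in Stx1a (8.07, the 3 at 7.95 to 8.03), Rab3a (10.24, the 3 at 10.02 to 10.14) and Unc13a (10.78).

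On the deposited scale most of the 8 genes varied with one another over the 17 arrays. Syt7 had a Pearson r of only -0.11 to 0.19 with the other 7 there, and Rims2 had -0.33 with Sytl4. After cyclic loess Syt7 no longer stood apart, with 0.89 for Stx1a, 0.85 for Unc13a, -0.84 for Rab3a and -0.81 for Snap25. Sytl4 then had the weaker values, -0.32 to 0.49 with the other 7. As deposited, Snap25 and Rab27a had a Pearson r of 0.95 and Stx1a and Unc13a 0.78, whereas Stx1a and Snap25 had -0.93. The arrays share genotype and array median, so these values describe the set and carry no test. The gene outside the list most like Stx1a, among 17052 searched, was Tox2 (r 0.97), and for the others it was Lpp for Snap25 (0.98), Ccdc130 for Unc13a (0.97), Naxe for Rab27a (0.97), Rwdd4a for Rab3a (0.97), Atp7a for Sytl4 (0.95), Patj for Rims2 (0.92) and Rsrp1 for Syt7 (0.86). After cyclic loess Ccdc130 (0.98) and Naxe (0.91) stayed nearest to Unc13a and Rab27a, and the other 6 had another nearest gene.

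A wider list of 99 exocytosis genes was counted by role, of which 95 were measured. In Men1 RIP-Cre 27 were called higher and 25 lower, with a median change of -0.0067, where 15.7% of all genes were called higher and 37.8% lower with a median of -0.23. After cyclic loess the counts were 27 and 27 (all genes: 18.4% and 16.0%, median -0.02). In the double knockout they were 18 and 15 (all genes: 13.0% and 20.6%), or 11 and 15 after cyclic loess (13.9% and 11.4%). Rbp2 RIP-Cre had 7 and 5 (all genes: 6.70% each way), or 4 and 7 after cyclic loess (5.61% and 3.81%). The counts by role that follow for Men1 RIP-Cre are small and stand against those shares of all genes. Between RIP-Cre and wt 0 of the 95 were called (limma).

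Among the other SNAREs, which differ in the membranes they serve, 5 of 11 were higher and 2 lower in Men1 RIP-Cre (all genes: 15.7% and 37.8%). The endosomal and vesicle SNAREs Vamp7 (1.18, SE 0.25, adjusted p = 0.00212) and Vamp3 (1.14, SE 0.18, adjusted p = 0.00036) rose, and the plasma membrane syntaxin Stx4a fell by 0.89 (SE 0.15, adjusted p = 0.000719). All 3 kept their call in the double knockout (0.90, 0.78 and -0.66), and Vamp7 was called in Rbp2 RIP-Cre too (0.90, adjusted p = 0.0272). SNARE regulators counted 5 of 14 higher and 1 lower against the same shares, among them the SNARE-recycling ATPase Nsf (0.41) and the syntaxin-binding Stxbp2 (-0.32).

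Of the vesicle membrane proteins 6 of 9 were higher and 2 lower in Men1 RIP-Cre, with a median of 0.43, against 15.7% and 37.8% of all genes and a median of -0.23 (5 and 2, median 0.30, after cyclic loess, where all genes had 18.4%, 16.0% and -0.02). Sv2b (1.06, SE 0.17, adjusted p = 0.000459) and Sv2a (0.78) rose while their relative Sv2c fell by 0.75, and the vesicle-tethering synapsins split likewise, Syn1 at 0.58 and Syn2 at -0.56. Sv2c is dim, and its decile of level had a median change of -0.39. After cyclic loess Sv2b, Sv2a and Sv2c were at 1.33, 0.51 and -0.39, all called. Of the docking and priming factors 2 of 16 were higher and 6 lower, median -0.25, which was near the shares and the median of all genes (15.7%, 37.8% and -0.23). After cyclic loess 2 were higher and 8 lower, median -0.29 (all genes: 18.4%, 16.0% and -0.02). The 3 Unc13a relatives measured all fell (Unc13d -0.58, Unc13c -0.57 and Unc13b -0.32), and of the 2 CAPS priming factors Cadps rose (0.50) and Cadps2 fell by 0.83. After cyclic loess the 3 relatives were at -0.24, -0.44 and -0.49, Cadps at 0.28 and Cadps2 at -0.51, all called.

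Synaptotagmins and Doc2 proteins counted 2 of 17 higher and 7 lower in Men1 RIP-Cre, near the 15.7% and 37.8% of all genes (3 and 5 after cyclic loess, all genes 18.4% and 16.0%). Syt1, the fast sensor of synapses, fell by 1.20 (SE 0.25, adjusted p = 0.00189) and Syt4 rose (0.63). Rab3 and Rab27 relatives, regulators and effectors were split 6 and 6 of 20 (all genes: 15.7% and 37.8%). Rab27b, the close relative of Rab27a, fell by 0.68 and the Rab27 effector Sytl2 by 0.91 (SE 0.14, adjusted p = 0.000347), opposite to Rab27a and Sytl4. Rab27b and Sytl2 lie in dimmer deciles of level, with median changes of -0.39 and -0.32, against 0.20 for that of Rab27a and Sytl4. After cyclic loess Rab27b was at -0.32 and Sytl2 at -0.65, both called. Rab27a was then at 0.22 (uncalled) and Sytl4 at 0.33 (called). The Rab3 exchange factors Rabif (1.01) and Madd (0.49) were higher, as Rab3a was, with Madd uncalled after cyclic loess (adjusted p = 0.0515). The exocyst, a tethering complex, had 1 of 8 higher and 1 lower, Exoc5 (0.98) and Exoc7 (-0.25), against the same shares, and 3 and 3 after cyclic loess (all genes: 18.4% and 16.0%).

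In Rbp2 RIP-Cre the largest calls of the wider list beside Vamp7 were the vesicle protein Syp (0.54, adjusted p = 0.0169) and Syt13 (0.42, adjusted p = 0.0305), and, lower, the calcium sensor Doc2b (-0.68, adjusted p = 0.0333), Exoc4 (-0.41, adjusted p = 0.0172) and the Rab27 effector Myrip (-0.37, adjusted p = 0.04). Cyclic loess ended the calls on Syp, Syt13, Doc2b and Myrip (adjusted p = 0.0855, 0.52, 0.0614 and 0.0793). In the double knockout Exoc5 (0.85), Sv2b (0.83) and Vamp7 led the genes that rose, and Syt1 (-0.67), Stx4a and Cadps2 (-0.58) those that fell, of which Syt1 was lost after cyclic loess (-0.48, adjusted p = 0.123).

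The double knockout differed from Men1 RIP-Cre in 4 of the 95 genes of the wider list, 2 higher and 2 lower (limma; all genes: 1.10% and 0.567%). Syn2 (0.64, adjusted p = 0.0176) and Syt17 (0.51, adjusted p = 0.00672) were higher, and Rab3c (-0.58, adjusted p = 0.0351) and the endocytic adaptor Snap91 (-0.40, adjusted p = 0.0478) lower. Against Rbp2 RIP-Cre, Snap91 was higher (0.52, adjusted p = 0.00838) and Cadps2 lower (-0.49, adjusted p = 0.0209). That is 1 of 95 each way, where all genes had 0.582% higher and 0.617% lower. The interaction was called for Rab3c (-0.87, adjusted p = 0.0391), Syp (-0.71, adjusted p = 0.042) and Rab3gap1, a Rab3 regulator (-0.57, adjusted p = 0.0458), and Syp was lost after cyclic loess (adjusted p = 0.0753). These were 0 higher and 3 lower of 95, against 1.78% and 1.61% of all genes. Counts this small do not set the wider list apart.

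Markers of the cells an islet preparation can hold were read on the same arrays. The log2 of the summed intensities of 10 beta cell markers was 15.39 to 15.77 in RIP-Cre and 16.15 to 16.26 in Men1 RIP-Cre. It was 16.01 to 16.23 in the double knockout and 15.88 to 16.04 in Rbp2 RIP-Cre, without overlap between RIP-Cre and any knockout group. The brightest markers weigh most in such sums. In Men1 RIP-Cre 7 of the 10 were called higher, against 15.7% of all genes (6 higher and 2 lower after cyclic loess). With both genes deleted 7 were, against 13.0% (3 and 3 after cyclic loess), and in Rbp2 RIP-Cre 3, against 6.70% (1 and 0). On the deposited scale the beta cell markers thus moved with Snap25, Rab27a and Rab3a, less so after cyclic loess, and their part in those changes was not tested. The dimmest of the 10, Mafa, has a mean level of 10.99, so all lie in the brightest decile. That decile had median changes of 0.20 in Men1 RIP-Cre, 0.21 in the double knockout and 0.18 in Rbp2 RIP-Cre. Exocytosis genes are also expressed by neurons. The 9 neuronal markers summed to 11.18 to 11.26 in RIP-Cre and 11.45 to 11.68 in Men1 RIP-Cre, where 1 (Th) was called higher and 5 lower (1 and 0 after cyclic loess). The 3 Schwann cell markers were all lower in Men1 RIP-Cre (9.50 to 9.66 against 10.06 to 10.38) and likewise in the double knockout (9.42 to 9.83). In Men1 RIP-Cre 2 of 4 delta cell markers and 2 of 5 alpha cell markers were called lower, near the 37.8% of all genes. After cyclic loess 4 of 4 and 4 of 5 were, against 16.0% of all genes. Acinar markers spanned 11.03 to 13.99 among RIP-Cre arrays and had 0 of 7 called in any knockout comparison (limma). The 4 duct cell markers measured summed lower in Men1 RIP-Cre (9.40 to 9.57) and in the double knockout (9.52 to 9.79) than in RIP-Cre (9.81 to 10.17), with 3 and 1 of them called lower (0 and 1 after cyclic loess). The 6 macrophage markers summed higher, at 10.74 to 11.00 and 10.81 to 11.11 against 10.57 to 10.65, with 2 called higher in each group (4 in each after cyclic loess). All marker counts stand against 15.7% of all genes called higher and 37.8% lower in Men1 RIP-Cre (18.4% and 16.0% after cyclic loess). In the double knockout these shares were 13.0% and 20.6% (13.9% and 11.4%). No marker was at 0 on any array. What these markers contribute to the exocytosis values was not tested.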

How the data were processed

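Islet RNA was measured on 17 whole-transcript arrays. The authors deposited these as log2 intensities for 35512 probe sets. How they were scaled is not given in the sources used here, and the base 2 was inferred from the spacing of low values. Precision is limited by the number of arrays.

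By the platform's annotation, 21789 probe sets named 1 gene, 1621 named several, and 12102 were not listed. The brightest probe set stood for each of 19938 genes. Limma 3.58.1 (lmFit and eBayes, R 4.3.3) fitted the group means over 17 arrays at once, with Benjamini-Hochberg adjustment over all genes. The fit was tested on simulated data. No array copied another (least root mean square difference 0.357).

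Alternatives were cyclic loess and quantile normalization, the array median as a covariate, other control groups, filters, probe sets and variance models, a replicate block, and each array left out. Named genes of the wider list are the 3 highest and 3 lowest calls of a comparison, with further members chosen after their values were seen. The genes and lists were chosen with earlier results of these data known.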

Additional observations from a re-analysis of the deposited data

Results flagged for a closer look

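In 4 of the 8 genes 1 of the 4 Rbp2 RIP-Cre arrays stood far from the other 3, by the gap test for small groups. Array 1 was the highest in Rab27a (11.01, the others 10.63 to 10.69) and the lowest in Unc13a (10.78, the others 10.90 to 10.91). Array 3 was the lowest in Syt7 (11.02, the others 11.12 to 11.14) and array 4 in Sytl4 (11.00, the others 11.29 to 11.34). Chance flags about 1 in 20 groups, and no such array was found for these genes in the double knockout. The share of all genes flagged in this way was not counted. Genes read on the same arrays are not independent, so the count does not set these genes apart. Array 1 has the lowest median of all arrays (7.82). It was also the highest of its group in Snap25 (11.24) and Rab3a (10.24) and the lowest in Stx1a (8.07), though not beyond the test.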

How the results depend on the processing

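With the array median as a covariate 0 of the 8 genes were called against RIP-Cre in any of the 3 knockout groups, in place of 6 (Men1 RIP-Cre), 1 (Rbp2 RIP-Cre) and 5 (double knockout), and Rab3a in Men1 RIP-Cre turned to -0.09. That fit called 396, 42 and 280 of all 19938 genes in the same 3 comparisons, so 0 of 8 is near the share of all genes. The Rbp2 RIP-Cre count of 1 became 0 with only the arrays compared, without the 3 high-median controls (RIP-Cre 3, wt 1 and wt 3) or with wt as the control, became 2 with wt and RIP-Cre pooled, and ran from 0 to 2 when single arrays were left out. The double knockout count of 5 fell to 3 without those 3 arrays and ran from 3 to 6 over single arrays. The interaction count of 0 became 1 (Stx1a) with the pooled control or with genes above the 25th percentile of mean level, and ran from 0 to 1 over single arrays.

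Repeat numbers did not pair the arrays throughout: of 31 same-numbered pairs 10 had a correlation of deviations above 0.1 (range -0.298 to 0.449). The number 3 arrays outside Men1 RIP-Cre did go together. Their values ran from 0.216 (wt with Rbp2 RIP-Cre) to 0.449 (RIP-Cre with Rbp2 RIP-Cre). Of the 17 arrays 8 correlated best with their own number, and how many would do so by chance was not assessed. With the number as a replicate block the interaction count became 1 (Stx1a, 0.62, adjusted p = 0.0456) and no other call on the 8 genes changed. Over all genes the block moved the interaction calls from 675 to 1933.

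Calls over all genes moved as well. For Men1 RIP-Cre they were 10660, with 6875 after cyclic loess, 6983 after quantile normalization, 396 with the array median, 16809 over all probe sets, 6944 without the 3 control arrays and 6174 to 11061 over single arrays. Rbp2 RIP-Cre had 2672, with 42 (array median), 1771 (wt control), 6221 (pooled control), 1080 (only the arrays compared), 475 (without the 3 control arrays) and 223 to 3611 over single arrays. The double knockout had 6716, with 280 (array median), 10788 (all probe sets), 2892 (without the 3 arrays) and 2371 to 7409. Single arrays took the double knockout from 333 to between 111 and 416 against Men1 RIP-Cre and from 239 to between 109 and 304 against Rbp2 RIP-Cre, and the interaction from 675 to between 22 and 2783. RIP-Cre against wt had 0, and 107 without the 3 arrays, where wt is 1 array assumed to vary like the other groups.

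Over every alternative and gene, 1454 values kept their direction and side of the threshold, 41 lost a call, 22 gained one, 58 uncalled values changed sign and 1 called value did. The values carry no probe-level background, so how far a dim signal stands above it is not known here, and 3 or 4 arrays a group limit what differences can be seen.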
